A study of Caenorhabditis elegans with 2 samples.

Results

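The 5 genes elt-3, elt-1, egl-18, elt-6 and egl-27, which encode GATA-type zinc finger proteins with roles in the epidermis of the nematode Caenorhabditis elegans, were read for regions bound by ELT-3. They are 5 of the 19973 protein-coding genes of the annotation and were listed by name, with earlier results of these data known. For each gene, every region of 4 deposited lists was taken whose summit lay between 5000 bp upstream of the gene's 5′ end and its 3′ end, a span called its window here. The data are chromatin immunoprecipitation sequencing (ChIP-seq) of ELT-3 fused to eGFP, in whole L3 larvae of strain OP75, genotype unc-119(ed3) III; wgIs75, with males and females pooled and age given as unknown. There were 2 biological replicates of this 1 group, so no conditions were compared and no test was made. Per the labels the antibody was directed at elt-3, and wgIs75 is an insertion for elt-3. A region at elt-3 therefore cannot be told apart between the native gene and copies in the transgene, and elt-3 is given apart from the other 4 genes. Whole animals were used, so the cells in which a region was bound are not known.

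GATA factors recognise a short DNA sequence built around GATA, and several of them act in sequence as the worm epidermis forms. ELT-1 commits embryonic cells to an epidermal fate, and ELT-3 follows it in the main body epidermis. EGL-18 and ELT-6 are a closely related pair, encoded side by side, that keep the lateral seam cells of the epidermis in their fate. EGL-27 is related to the MTA subunits of chromatin remodelling complexes, carries a GATA-type zinc finger and acts in cell polarity, cell migration and stress resistance.

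Of the 4 genes other than elt-3, egl-27 alone had a summit of the list that passed the irreproducible discovery rate (IDR) step. This step filters regions by how consistently replicates rank them. The list was the same as the 280 strongest regions of the list that pools both replicates. Among all protein-coding genes, 2.16% had an IDR summit in their window. The egl-27 region lay in an intron, had 5 GATA motifs over its width, and stood at rank 47 of 30000 in replicate 1 and rank 59 of 30000 in replicate 2. The elt-3 window held 3 IDR regions, all in its second intron. The windows of elt-1, egl-18 and elt-6 held regions of the relaxed lists only, and none of these ranked higher than 3851 of 21761 in the pooled list. The −log10 q-values deposited for their pooled regions reached 0.133 at most, against 2.45 for the egl-27 IDR region.

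Stretches around the summits of the 4 IDR regions are given to show where motifs lay. They do not follow the borders of the regions, so a stretch and its region can hold different numbers of copies. The motif was an A or T, then GATA, then an A or G, on either strand, and capitals mark its copies. A copy on the reverse strand shows TATC in its middle. Sequences are the + strand of ce11 (the RefSeq WBcel235 assembly), 5′ to 3′, and all 5 genes lie on the + strand. The egl-27 stretch, chrII:6842832-6843126, spans the IDR summit and a weaker neighbouring summit and lies +7824 to +8118 bp from the gene's 5′ end. The leftmost elt-3 stretch, chrX:13936736-13937027, likewise spans the IDR summit of pooled rank 108 and a neighbour. The middle one, chrX:13937410-13937655, surrounds the summit of rank 81, and the right one, chrX:13938083-13938233, surrounds that of rank 20. A stretch around the strongest pooled summit upstream of elt-1, chrIV:9611882-9611982, is added because it held a motif without being an IDR region.
egl-27, intron: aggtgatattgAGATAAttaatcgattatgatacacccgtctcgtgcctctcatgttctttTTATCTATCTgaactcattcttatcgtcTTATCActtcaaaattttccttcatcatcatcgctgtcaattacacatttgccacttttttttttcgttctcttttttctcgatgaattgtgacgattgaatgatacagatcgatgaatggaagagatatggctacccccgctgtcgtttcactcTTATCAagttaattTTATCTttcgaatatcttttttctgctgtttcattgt
elt-3, left: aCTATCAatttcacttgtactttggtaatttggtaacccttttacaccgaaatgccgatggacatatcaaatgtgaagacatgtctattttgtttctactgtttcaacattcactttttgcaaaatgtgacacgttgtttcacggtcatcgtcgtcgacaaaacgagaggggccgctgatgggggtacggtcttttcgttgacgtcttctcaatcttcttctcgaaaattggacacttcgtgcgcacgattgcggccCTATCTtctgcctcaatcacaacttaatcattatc
elt-3, middle: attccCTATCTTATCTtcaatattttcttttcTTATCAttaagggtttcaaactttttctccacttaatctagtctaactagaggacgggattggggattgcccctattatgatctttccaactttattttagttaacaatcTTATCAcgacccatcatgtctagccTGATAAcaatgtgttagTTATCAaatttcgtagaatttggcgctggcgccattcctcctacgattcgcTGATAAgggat
elt-3, right: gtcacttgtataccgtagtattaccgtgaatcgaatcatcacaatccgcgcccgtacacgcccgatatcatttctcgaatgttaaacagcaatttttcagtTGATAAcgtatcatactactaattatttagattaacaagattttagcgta
elt-1, upstream: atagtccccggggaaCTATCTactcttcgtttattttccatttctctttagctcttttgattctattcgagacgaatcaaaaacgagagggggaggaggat
The egl-27 stretch held 6 motif copies, of which those beginning at +7885 and +7889 overlap and form 1 run of capitals. The egl-27 IDR region itself held 5. The middle elt-3 stretch and its region both held 7 copies. The left stretch held 2, of which that at +2119 is beyond its IDR region, and the region's second copy, at +1829, is outside the stretch. The right stretch held 1, and a second copy of its region, at +3367, is outside the stretch. The elt-1 stretch held 1.

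The 4 lists differed in length and strictness. The IDR list held 280 regions with signals from 46.8 to 148, and these were the 280 strongest of the 21761 pooled regions, whose signals ran from 15.1 to 148. Replicate 1 held 30000 regions with signals from 6.45 to 95.2, and replicate 2 held 30000 with signals from 8.47 to 53.9. The signal is the authors' own value whose scale the sources do not state, so it orders regions within 1 list, and rank 1 is the strongest. The relaxed lists include background regions: 77.0% of all protein-coding genes had a pooled summit in their window, 86.4% had one of replicate 1 and 86.8% one of replicate 2. That all 5 genes had a summit in each of these 3 lists is therefore close to what most genes showed, and ranks rather than presence are given below. The sources used here state no read depth, and the control library was not analysed here.

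**Figure D1:**
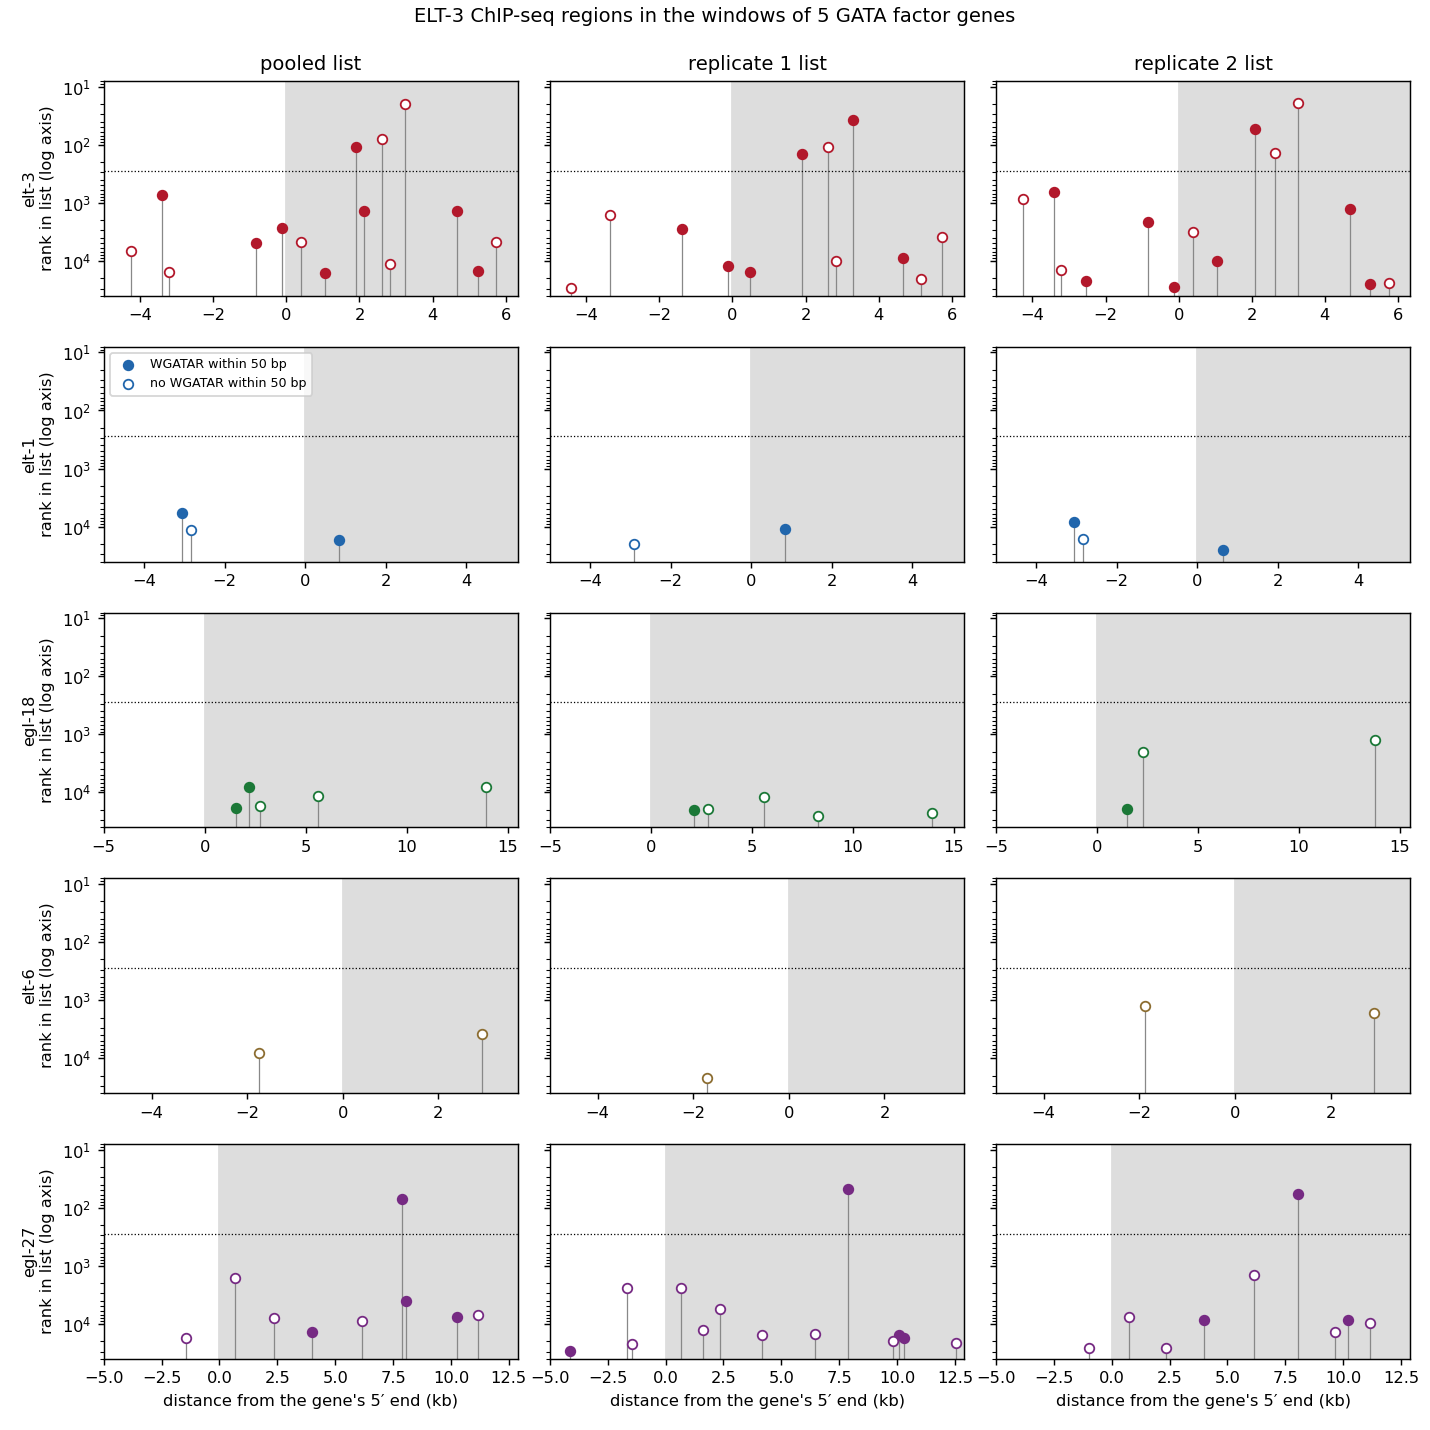
Regions of the pooled, replicate 1 and replicate 2 lists in the windows of the 5 genes, by the distance of the summit from the gene's 5′ end in kb (x axis) and rank in the list (y axis, log scale, strongest at the top). Grey marks the gene body, filled points have a GATA motif within 50 bp of the summit, and the dotted line is rank 280. Points above that line occur in the elt-3 and egl-27 rows and in none of the other 3 rows.

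The egl-27 gene (WBGene00001194) lies at chrII:6835008-6847908. Its IDR region, chrII:6842694-6843049, had a pooled signal of 71.4, rank 71, with a summit 7864 bp downstream of the 5′ end. This summit lay in intron 10 of 12 of the longest transcript, and 22 of the 24 annotated transcripts spanned it. The nearest start of an egl-27 transcript was 468 bp upstream of the summit. The 5′ end of a small nucleolar RNA gene inside egl-27, C04A2.16, was 368 bp away, nearer than any start of egl-27. No other protein-coding gene had this summit in its window.

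Both replicates ranked the egl-27 intron high, but they placed its summit differently. Replicate 1 had a signal of 50.3, rank 47, with its summit 2 bp left of the pooled one. Replicate 2 had a signal of 33.5, rank 59, with its summit 172 bp to the right. The pooled list held a second region there, rank 4071 with a signal of 24.1, whose summit was 214 bp to the right of the first and 42 bp from that of replicate 2. Motif copies stood at both places: 3 within 50 bp of the first pooled summit and 2 within 50 bp of the second. The −log10 q-value deposited for the first was 2.45, the highest value of the IDR list, which 141 of its 280 regions share, among them all 3 at elt-3, and that of the second was 0.123.

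The other 7 pooled regions of egl-27 were weaker. The strongest of them, rank 1603 with a signal of 29.4, lay 675 bp downstream of the 5′ end in an intron, inside the noncoding RNA gene C04A2.9, and had no motif within 50 bp. It stood at rank 2374 in replicate 1 and rank 7710 in replicate 2. A region at +6150 was at rank 1447 in replicate 2. The overlapping region of replicate 1 was at rank 14979, but its summit lay 303 bp to the right of the pooled one. No replicate 1 summit was within 100 bp, so these ranks need not describe the same site. Altogether the window held 9 pooled regions, 13 of replicate 1 and 9 of replicate 2. Of the 9 pooled summits, 7 were intronic, 1 was in a coding exon and 1 was upstream.

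The elt-3 gene (WBGene00001251) lies at chrX:13934874-13941216, and its window held 15 pooled regions, 12 of replicate 1 and 14 of replicate 2. Per kb of window this was 1.32 pooled regions, 1.06 of replicate 1 and 1.23 of replicate 2. The medians over all protein-coding genes were 0.170, 0.280 and 0.292 per kb for the same 3 lists. The window was therefore crowded in each list, as well as holding strong regions. The best pooled rank was 20, with a signal of 93.4, and 99.8% of the 19973 genes had no pooled signal that high in their window. 

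All 3 IDR regions of elt-3 lay in intron 2 of 7 of the longest transcript, an intron that 3 of the 6 annotated transcripts span. The right one, rank 20, was at chrX:13937955-13938310 with its summit at +3259. The middle one, rank 81 with a signal of 68.8, was at chrX:13937322-13937677 with its summit at +2626. The left one, rank 108 with a signal of 63.5, was at chrX:13936598-13936953 with its summit at +1902. A shorter transcript, K02B9.4a.1, begins inside the gene 3869 bp downstream of the 5′ end. Read from that start, the 3 summits lay 610, 1243 and 1967 bp upstream, so the intron of the longer transcripts is also upstream sequence of the shorter one. The noncoding RNA genes K02B9.7 and K02B9.8 also begin in this intron, and each summit was nearer to one of their 5′ ends than to the gene's own 5′ end.

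Each replicate list held 3 elt-3 regions among its 280 strongest. In replicate 1 they were at ranks 37, 110 and 147, with signals of 53.7, 39.9 and 36.2. In replicate 2 they were at ranks 19, 53 and 138, with signals of 41.3, 33.8 and 27.9. The middle summits were at the same base in replicate 1 and in the pooled list, and 4 bp apart between the replicates. The left summit was again placed differently: replicate 1 had it 4 bp left of the pooled summit and replicate 2 had it 180 bp to the right. As at egl-27, a second pooled region stood beside the first, rank 1373 with its summit at +2113, 31 bp from that of replicate 2. This second summit was 1 bp from the 5′ end of K02B9.8.

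The 3 strong elt-3 summits differed in where their motifs lay. The left summit had TGATAG 39 bp to its left. The middle summit had no motif within 50 bp, yet 7 copies lay in its 356-bp region, the nearest beginning 52 bp to the right. In the IDR list 8 regions, or 2.86%, held 7 or more copies, and in the pooled list 19 regions did, or 0.0873%. The right summit had its nearest copy, TGATAA, beginning 51 bp to the right, just outside the 50 bp counted. The replicate 1 summit lay 48 bp to the right of the pooled one and so had this copy beside it, whereas the replicate 2 summit, 3 bp to the left, did not.

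The other 12 pooled regions of elt-3 included 5 upstream of the gene. The strongest of these 5, rank 726 with a signal of 35.6, lay 3417 bp upstream inside the pseudogene WBGene00010494, had a motif within 50 bp and stood at rank 1591 in replicate 1 and rank 656 in replicate 2. Nearest to the gene's 5′ end was a region 120 bp upstream, at pooled rank 2733 with a motif. It stood low in each replicate, at rank 12333 in replicate 1 and rank 27933 in replicate 2. A region at +4679, in intron 4, was at pooled rank 1403 and at ranks 8887 and 1258 in replicates 1 and 2. Of all 15 pooled summits, 9 were intronic, 5 were upstream and 1 was in a coding exon.

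Regions were also dense around elt-3. Within 20 kb of the middle of the gene, on either side, there were 32 pooled regions (0.80 per kb), 32 of replicate 1 (0.80 per kb) and 33 of replicate 2 (0.825 per kb). This span includes the elt-3 window, so its 15, 12 and 14 regions are among them. From 10 to 20 kb away, clear of that window, the pooled density was 0.7 per kb to the left and 0.6 to the right. There it was 0.9 and 0.4 in replicate 1, and 0.8 and 0.7 in replicate 2. From 20 to 60 kb away there were 21 pooled regions (0.263 per kb), 27 of replicate 1 (0.338 per kb) and 25 of replicate 2 (0.313 per kb). The means over chromosome X were 0.259, 0.347 and 0.354 per kb for the pooled list and replicates 1 and 2. The flanks from 20 to 60 kb were thus near the chromosome's mean, and the nearer stretch was above it in all 3 lists. The sources used here do not say how far the transgene's copy of the locus reaches, and its share in this density was not tested.

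**Figure D2:**
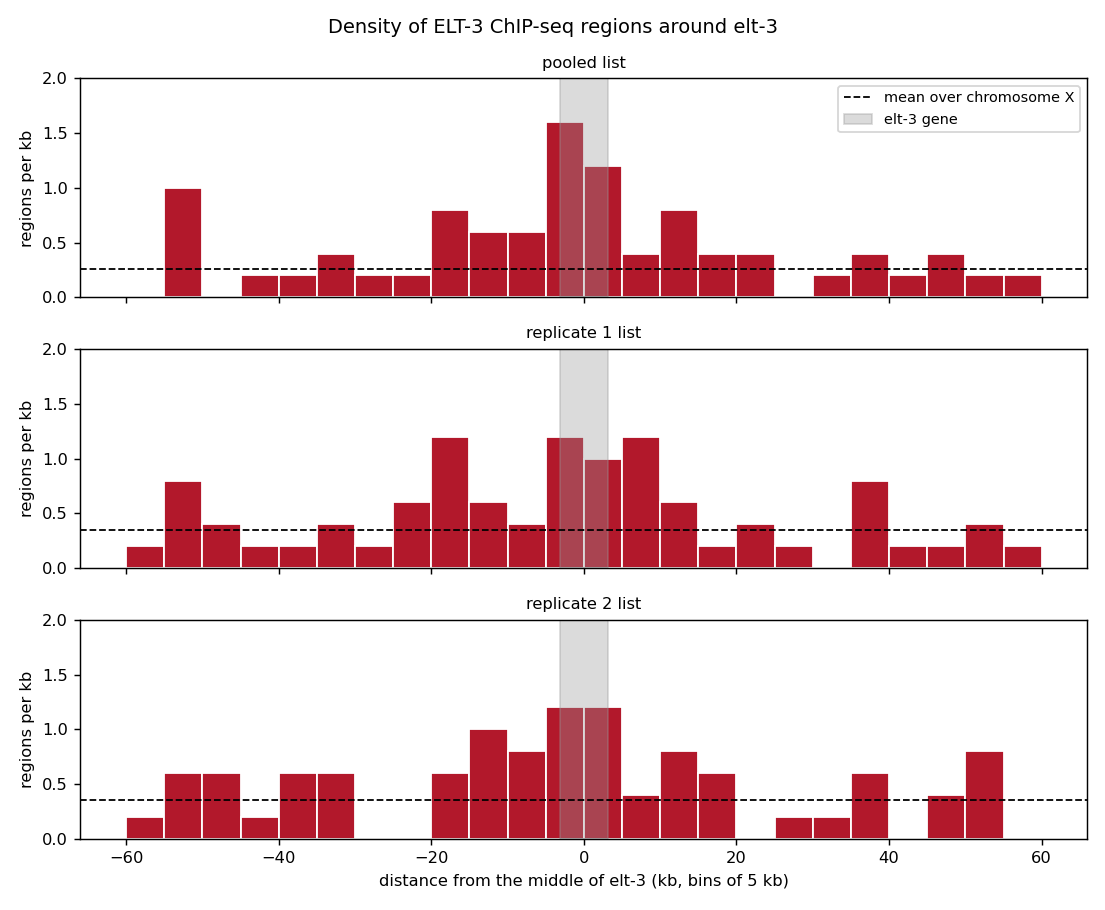
Density of regions in 5-kb bins within 60 kb of the middle of elt-3, in regions per kb, for the pooled, replicate 1 and replicate 2 lists, with the mean of chromosome X as a dashed line and the gene shaded. The pooled density is highest, at 1.6 per kb, in the bin just left of the gene's middle, and a single bin more than 50 kb to the left also reached 1.0 per kb.

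The elt-1 gene (WBGene00001249) lies at chrIV:9614995-9620280. Its window held no IDR region, 3 pooled regions, 2 of replicate 1 and 3 of replicate 2. The strongest pooled region, chrIV:9611754-9612109, had a signal of 22.3, rank 5766, and a summit 3063 bp upstream of the 5′ end, with AGATAG 35 bp to its left. The −log10 q-value deposited for it was 0.0836. This region stood at rank 8231 in replicate 2, with a signal of 13.2. It overlapped a region at rank 20010 in replicate 1, whose summit was 160 bp to the right. The noncoding RNA gene W09C2.11 begins 89 bp from the strongest pooled summit. A second pooled summit, at rank 11646, was 220 bp to the right of the strongest, and these pooled regions overlap. The replicate 1 summit at rank 20010 was nearer to this second one, at 60 bp. The third pooled summit, at rank 17152, lay 828 bp downstream of the 5′ end in intron 2 of 7, had 2 motifs within 50 bp and held the gene's best rank in replicate 1, 11126. Per kb, elt-1 had 0.292 pooled regions, against the median of 0.170 over all genes, and its best pooled signal was above that of 68.2% of genes. The single replicates placed it nearer the middle of all genes. It had 0.194 regions per kb in replicate 1 (median 0.280) and 0.292 in replicate 2 (median 0.292). Its best signals there were above those of 47.4% and 55.4% of genes.

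The neighbouring genes egl-18 (WBGene00001186, chrIV:1902322-1917840) and elt-6 (WBGene00001253, chrIV:1917977-1921643) share part of their windows. Neither held an IDR region. One pooled region, at rank 8170 with a signal of 20.4, counted for both: it lay in the last intron of egl-18, at +13908, and 1747 bp upstream of elt-6. In replicate 2 the overlapping region was at rank 1260, with a signal of 19.4 and a summit 134 bp to the left. In replicate 1 it was at rank 22307, with a signal of 7.51. The 2 replicates therefore placed the same stretch at very different ranks, and it had no motif within 50 bp in either.

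The other pooled regions of this pair were also uneven between the replicates. In elt-6 the strongest, at pooled rank 3851 with a signal of 24.4, lay in intron 5 of 6 at +2914. It stood at rank 1688 in replicate 2, and no region of replicate 1 overlapped it. In egl-18 a region at +2172 in the first intron, at pooled rank 8213 with a motif within 50 bp, overlapped rank 20089 in replicate 1 and rank 2057 in replicate 2. The replicate 2 summit lay 126 bp to the right of the pooled one. All 5 pooled summits of egl-18 were intronic. Its window of 20.5 kb gave 0.244 pooled regions per kb and that of elt-6, 8.67 kb long, gave 0.231. The median over all genes was 0.170. In replicates 1 and 2 egl-18 had 0.244 and 0.146 regions per kb, and elt-6 had 0.115 and 0.231. Both genes were there below the medians of 0.280 and 0.292 over all genes.

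**Figure D3:**
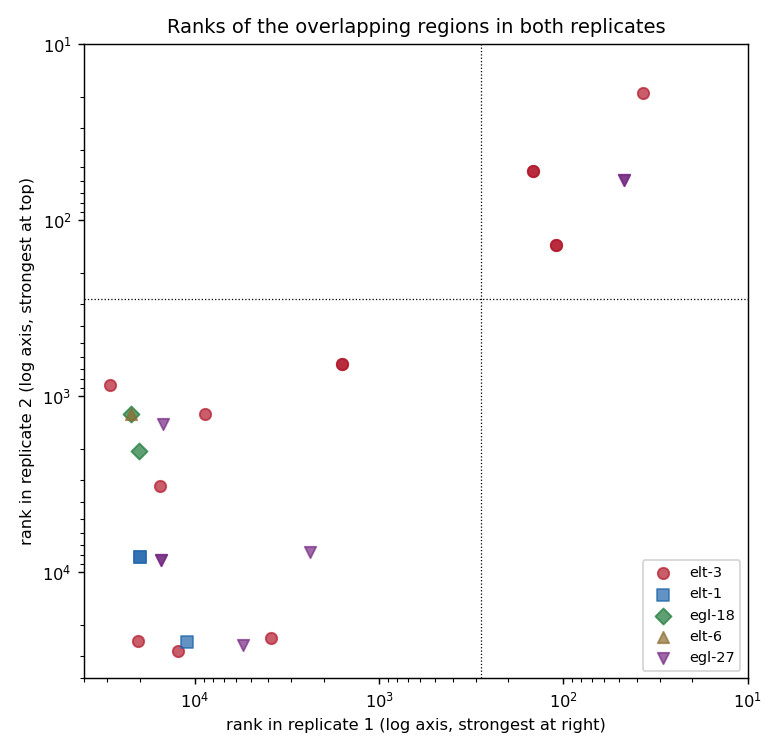
Rank of the replicate 1 region (x axis, log scale) against rank of the replicate 2 region (y axis, log scale) that overlap the same pooled region, for the 5 genes, strongest at the top right. Pooled regions that overlap the same replicate regions fall on 1 point, as do egl-18 and elt-6 for the region they share. Inside the dotted lines at rank 280 lie elt-3 and egl-27 points only, and the points of elt-1, egl-18 and elt-6 lie outside for both replicates.

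The 5 windows together held 33 different pooled regions, of which 4 were also IDR regions and 25 were overlapped by a region in each replicate. When summits had to lie within 100 bp, 8 of 15 pooled regions of elt-3 (53.3%) were matched in both replicates. For the other 4 genes the count was 4 of 18 (22.2%), and over the whole pooled list it was 5470 of 21761 (25.1%). Of these 4, 3 were in egl-27 and 1 was in elt-1. The pooled list was made from both replicates, so these shares describe how summits were placed and are not an independent check.

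A GATA motif lay within 50 bp of 8 of the 15 pooled summits of elt-3, or 53.3% (95% Wilson interval 30.1 to 75.2). For the other 4 genes it did so at 8 of 18 summits, or 44.4% (24.6 to 66.3), against 23.9% of all pooled summits and 44.3% of all IDR summits. By gene these were 4 of 9 in egl-27, 2 of 5 in egl-18, 2 of 3 in elt-1 and 0 of 2 in elt-6, where so few summits allow a share of up to 65.8% by the same interval. In windows of equal size 500 bp to the right, the shares were 13.3% for elt-3, 33.3% for the other 4 genes and 20.5% for the whole list. With windows 500 bp to the left they were 53.3%, 22.2% and 20.7%. At elt-3 the windows to the left therefore held the motif as often as the summits did, and those to the right less often. In replicate 1 the other 4 genes had a motif at 6 of 20 summits (30%), against 35% of windows to the right. In replicate 2 they had it at 6 of 16 summits (37.5%), against 37.5% of windows to the right. For these 4 genes neither replicate list thus held the motif more often at summits than to their right. At elt-3 the shares were 50% against 25% in replicate 1 and 57.1% against 7.14% in replicate 2. Intervals cover counting error over regions only, and neighbouring regions share sequence.

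Other genes of the family and of the epidermis give the setting. Among 8 further genes for GATA-type proteins, elt-2, elt-4, elt-7, end-1, end-3, med-1, med-2 and lin-40, none had an IDR summit in its window and 7 had a pooled one. Over all protein-coding genes these shares were 2.16% and 77.0%, so the counts set these 8 genes little apart from other genes. Most of these act in the endoderm, where ELT-2 is the main GATA factor of the intestine, and lin-40 encodes another MTA-related protein. Their best pooled signals had a median of 18.8 and reached 23.2 at elt-7, and end-1 had no pooled summit. The median over the 4 epidermal genes other than elt-3 was 23.3, and over all genes 19.1. 

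Among 10 genes known to act with the epidermal GATA factors, none had an IDR summit and all 10 had a pooled one, with a median best signal of 26.9. Of all protein-coding genes, 2.16% had an IDR summit and 77.0% a pooled one. Signals are therefore given rather than presence. The strongest pooled region was at lin-26, a zinc finger gene needed for epidermal fate, at pooled rank 662 with a signal of 36.6. The best ranks in the lin-26 window were 145 in replicate 1 and 692 in replicate 2. Next was grh-1, the Grainyhead gene, at pooled rank 671, with best ranks of 748 in replicate 1 and 250 in replicate 2. Best ranks were taken in each list separately, so they need not belong to the same region. The nuclear receptor gene nhr-25 followed at pooled rank 1035, sys-1 (a β-catenin) at 1076, the cell fusion gene eff-1 at 1964, and pop-1 (TCF) at 3092. The seam cell genes bro-1, ceh-16, rnt-1 and lin-22 were at 3985, 4430, 17228 and 19134. In the pooled list lin-26, grh-1, nhr-25, sys-1, eff-1 and pop-1 stood above elt-1, egl-18 and elt-6 and below elt-3 and egl-27.

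**Figure D4:**
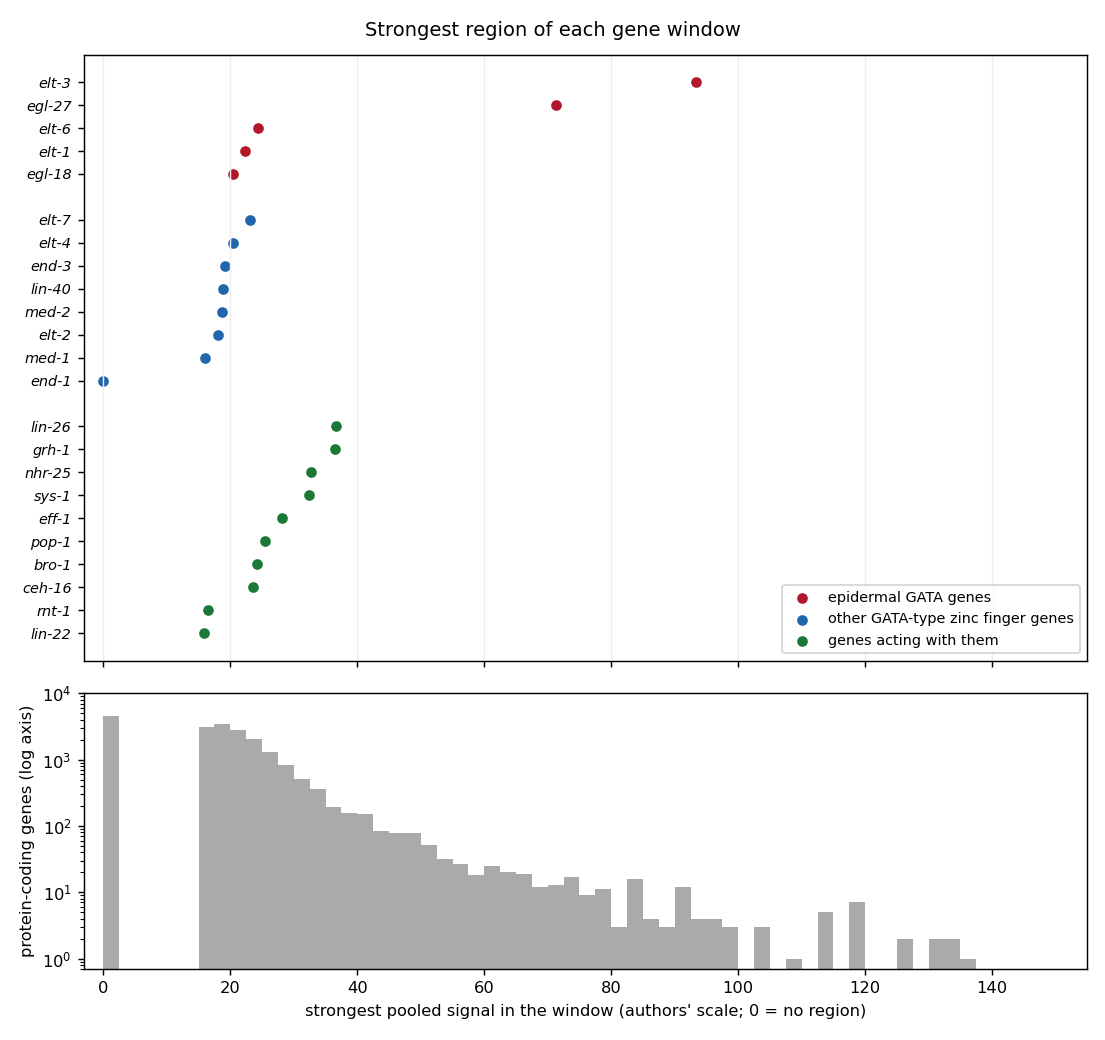
Strongest pooled signal in the window of each named gene (upper panel, 1 row per gene, on the authors' scale) above the distribution of the same value over 19973 protein-coding genes (lower panel, log axis, with genes lacking a pooled region at 0). The elt-3 point at 93.4 and the egl-27 point at 71.4 stand apart from the other named genes, which reach 36.6 at most.

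The split of the 5 genes was also read in other lists, all drawn from the same 2 replicates and so not independent of the IDR list. With the 280 strongest regions of replicate 1 in its place, egl-27 was again the only gene besides elt-3 with a summit, against 2.07% of all genes. With the 280 strongest of replicate 2 the same held, against 2.14% of genes. With the 1000 strongest pooled regions it held too, against 6.80% of genes. These include all 280 IDR regions, so elt-3 and egl-27 could not drop out and only a further gene could have joined. Windows as long as those of the 5 genes more often hold a summit: of 4566 protein-coding genes with windows from 8.667 to 20.519 kb, 127 (2.78%) had an IDR summit.

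By best rank in both replicate lists, the genes most like elt-3 were B0410.1, B0410.3 and atf-7, a bZIP factor gene. In replicates 1 and 2, B0410.1 and B0410.3 both had best ranks of 34 and 22, and atf-7 had 56 and 23. The distances of these genes from elt-3, in log10 rank over the 2 lists, were 0.0735, 0.0735 and 0.198. The genes most like egl-27 were F19H6.4, nspc-14 and ins-39, of the insulin-like family. F19H6.4 and nspc-14 both had best ranks of 43 and 54 (distance 0.0545), and ins-39 had 63 and 66 (distance 0.136). Best ranks were taken in each list separately, so those of a gene need not belong to the same region.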

How the data were processed

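ELT-3 ChIP-seq regions from 2 biological replicates of whole L3 larvae were used as the authors deposited them, on ce11. Per the text files deposited with them, each replicate list and the pooled list came from alignments and a control and hold peaks with background, and the IDR list came from those 3. The aligner, peak caller, IDR threshold, scaling and read depth are not stated in the labels or files used here. Region strength is the signal the authors deposited. The deposited −log10 q-value is printed for single regions and was not used to order them. Lists on ce10 were not used.

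Regions were placed by their summit on Ensembl release 115 gene models of WBcel235, whose chromosome lengths hold all regions, and positions are 1-based. Ranks order each list by signal. An upstream reach of 5000 bp, a motif distance of 50 bp, a summit match within 100 bp and a side window 500 bp away were the settings. A summit in an exon of any transcript of the gene was called exonic, and another summit within a transcript was called intronic. Introns are numbered in the longest transcript that spans the summit. Named genes are the 5 members, 8 further GATA-type genes, 10 genes acting with them, genes overlapping or starting nearer to a described summit than the member, and the 3 genes nearest in best rank. Members and lists were chosen with earlier results of these data known. The 2 replicates may share features the labels do not record. Alternatives were other reaches, list lengths, motif and match distances, and each replicate list alone. Placing was tested on simulated regions. Protein sequences were not used here. Python 3.11.15, numpy 2.4.6, pandas 2.3.3 and scipy 1.17.1 were used.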

Additional observations from a re-analysis of the deposited data

How the results depend on the processing

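Of 48 values from alternative settings of 14 results, 35 stayed within 1.5 times the count, or within the interval or spread, of the value reported and 13 did not. That egl-27 was the only gene besides elt-3 with an IDR summit held in all 7 alternatives run, and elt-3 kept from 2 (100 strongest IDR regions) to 4 summits (1000 strongest pooled regions). The egl-27 summit lies inside the gene at pooled rank 71. Another reach, any overlap, and the 100 or 1000 strongest regions therefore could not have dropped it. With a reach of 2000 or 10000 bp upstream, elt-1 had 1 or 6 pooled regions, and with 10000 bp egl-27 had 14. With the strongest regions of a single replicate, as many as the pooled list holds, in place of the pooled list, the counts were 10 to 11 for elt-3, 2 for elt-1, 3 for egl-18, 0 to 2 for elt-6 and 7 to 11 for egl-27. With replicate 1 alone elt-6 had 0. The highest density near elt-3 was 1.2 per kb in either replicate. Counting any GATA gave a share of 80% for elt-3 and 72.2% for the other 4 genes, against 50.8% of all pooled summits. Counting the motif within 100 bp gave 80% for elt-3, against 41.0% of all pooled summits. Side windows to the left held it at 53.3% of elt-3 regions. Pooled summits matched in both replicates were 12 within 100 bp, 22 within 200 bp and 25 by any overlap. Among genes with windows as long as those of the 5, 2.78% had an IDR summit. No paired analysis was possible because there is 1 group and no test. Depth is unknown, so no limit from it can be given.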

Other observations

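Within 60 kb of the middle of elt-3, some of the 1000 strongest pooled regions lay outside its window. The strongest, at pooled rank 46 with a signal of 80.8, lay 14301 bp upstream of elt-3, and the nearest 5′ end was that of the microRNA gene cel-mir-47, 677 bp away. It was at rank 54 in replicate 1 and rank 30 in replicate 2, so both replicates held it high. A region 230 bp past the 3′ end of elt-3, at pooled rank 461, was at rank 89 in replicate 1, with a signal of 41.9, and overlapped a region at rank 3641 in replicate 2, with a signal of 15.9. Likewise a region 1258 bp from the 5′ end of alg-1, which encodes an Argonaute protein of the microRNA pathway, was at pooled rank 546 and at ranks 434 and 6227 in replicates 1 and 2. A region 821 bp from the 5′ end of F48F7.5, at pooled rank 198 and in the IDR list, was at rank 130 in replicate 1 and rank 4608 in replicate 2. A neighbouring region 132 bp from that 5′ end, at pooled rank 785, was at rank 3791 in replicate 1 and rank 650 in replicate 2. The replicates thus ranked these last 4 regions unevenly, 3 of them higher in replicate 1 and 1 higher in replicate 2, and no cause was tested. Replicate ranks here are those of the strongest overlapping region, and the places of the summits were not compared.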
